A study of Mus musculus with 230 samples.

Results

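Gad2 encodes GAD65, an enzyme that makes the inhibitory transmitter GABA from glutamate, and its transcript was found in part of a set of cells sorted as glutamatergic progenitors. The cells described here are the single cells from postnatal day 2 (P2), split into groups chosen by their measured Gad2 level. 44 cells had at least 1 RPKM of Gad2 (reads per kilobase of a gene's length, scaled by read depth) and are called cells with Gad2. The other 64 cells were below 1 RPKM and are called cells without Gad2. The series holds 230 cells, 109 of them from P2, and 1 P2 column that is 0 for every gene was left out. Because the Gad2 values made the groups, the Gad2 difference itself is a description of the choice.

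Both groups came from C57BL/6 mice of the genotype Neurog2CreERT x Ai14+/+, in which tamoxifen activates a Cre recombinase expressed from Neurog2 and the recombinase turns on the red reporter tdTomato of Ai14. Tamoxifen was given 12 h before the dorsal subventricular zone (SVZ) was dissected, and reporter-positive cells were sorted, captured on C1 microfluidic chips, checked by eye and amplified with SMARTer chemistry, 1 library per cell. The reporter therefore marks cells in which Neurog2 had been active and the cells derived from them, and all cells, with and without Gad2, carry the same alleles and had the same treatment. The cell titles carry plaque1 or plaque2, taken here as 2 plates, a term the titles do not use. No label names an animal, so P2 is 1 sample: cells are not replicates and no test was made. Pairs of values in brackets are those of plate 1 and plate 2. The 121 embryonic day 15 (E15) cells of the series, from the pallium of mice of the same genotype and treatment, were used only to look up Gad2 and its partners.

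GABAergic neurons as a rule carry both glutamate decarboxylases, GAD65 from Gad2 and GAD67 from Gad1, and load GABA into vesicles with the transporter VGAT from Slc32a1. In the postnatal SVZ the precursors of GABAergic olfactory bulb interneurons are known for Dlx homeodomain factors, Sp8 and Sp9. Glutamatergic progenitors of the dorsal SVZ are known for the proneural factor Neurog2 and the T-box factor Eomes, followed in young neurons by Neurod and Tbr1 factors.

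Gad2 is annotated at chr2:22622205-22693874, plus strand (GRCm38, GENCODE M21), and none of its exons overlaps an exon of another gene. Its start region and that of Gad1 are shown because the results turn on Gad2 being present where Gad1 was listed at 0. The sequences are from RefSeq on GRCm38.p6, plus strand. The first is chr2:22622077-22622204, just before the annotated Gad2 gene. The second is chr2:22622239-22622268 inside the first annotated exon, with the letters CATCTG in capitals. The third, chr2:70561879-70562041, is the upstream part of a RefSeq start window of Gad1, which lies inside the longer gene that GENCODE annotates at chr2:70553072-70602014.
Gad2 upstream: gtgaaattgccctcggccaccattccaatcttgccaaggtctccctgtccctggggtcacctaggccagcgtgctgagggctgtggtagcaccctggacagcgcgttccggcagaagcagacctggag
Gad2 around CATCTG: ctccctcccccgCATCTGactcgcacctca
Gad1 upstream: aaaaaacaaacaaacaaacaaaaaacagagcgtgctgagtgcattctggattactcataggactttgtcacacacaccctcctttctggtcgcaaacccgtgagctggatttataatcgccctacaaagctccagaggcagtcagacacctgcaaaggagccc
CATCTG, at chr2:22622251-22622256 and 76 bases before the RefSeq start of the same window, is CAGATG on the other strand, an E-box of the kind that proneural factors such as Neurog2 bind. Searched on both strands in 300-base windows (250 before to 50 after a start), CAGATG was in 17.2% of 32851 windows and TAATTA, a core that homeodomain factors such as Dlx proteins bind, was in 5.29%. The Gad2 window held CAGATG and no TAATTA, and the Gad1 window held neither. A match is a description of letters and does not show a binding site.

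Gad2 was detected (at least 1 RPKM) in 28 of 55 cells of plate 1, or 50.9%, with an exact (Clopper-Pearson) 95% binomial interval from 37.1 to 64.6%. In plate 2 it was detected in 16 of 53 cells, or 30.2% (18.3 to 44.3%), and over both plates in 40.7% (31.4 to 50.6%). Such intervals cover counting error only. The plates thus held different shares of cells with Gad2, with overlapping intervals. In the cells with Gad2 the level ran from 1.34 RPKM over a median of 17.3 to 137 RPKM, and 29 of the 44 cells had at least 10 RPKM. These levels rested on many reads per cell, with a lowest of 43, a median of 677 and a highest of 6328 reads on the gene. In 56 of the 64 cells without Gad2 it was listed at 0, and the other 8 lay between 0 and the limit. The cells just under the limit had 0.329, 0.372 and 0.415 RPKM, and those just above it had 1.34, 1.54 and 1.87 RPKM. At E15 Gad2 was listed at 0 in all 121 cells.

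**Figure D1:**
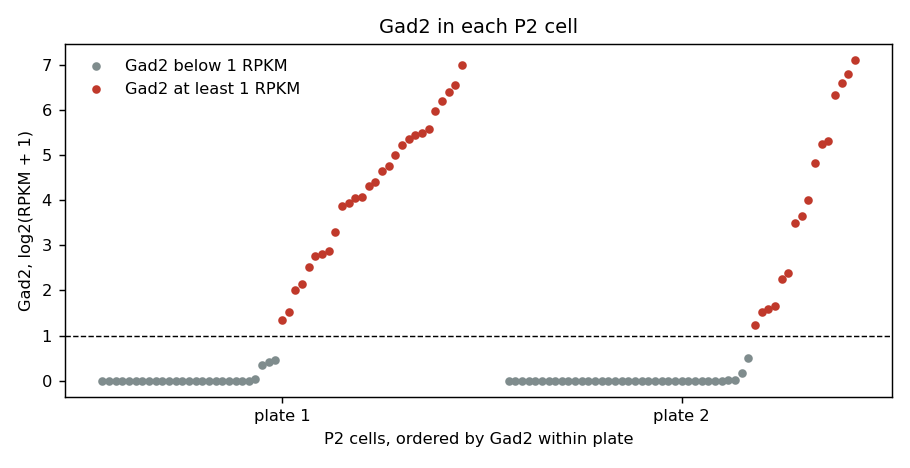
Gad2 level of each P2 cell as log2(RPKM + 1), with cells ordered by level within plate 1 and plate 2, red for cells of at least 1 RPKM and grey for the rest; the dashed line is the limit of 1 RPKM. Most grey cells sit at 0 (56 of 64), and the red cells spread from 1.34 to 137 RPKM.

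Depth was checked first, since a deeper cell can show more genes. Cells with Gad2 had a median of 2085.5 detected genes (1242 to 3339) and cells without Gad2 a median of 1983.5 (at most 3081, the poorest cell at 5.53% of the median of all P2 cells). In plate 1 the medians were 1891.5 with and 1946 without Gad2, and in plate 2 they were 2369.5 and 2014. Cells with Gad2 thus had slightly fewer genes in plate 1 and more in plate 2, with overlapping ranges in both. Reads assigned to genes had a median of 3.06 M (M, mega) with and 2.70 M without Gad2, over a range from 0.114 to 5.57 M for all cells. All 3 cells with fewer than 50% of the median gene number and both cells above 20% mitochondrially encoded RPKM were without Gad2. The part of detected genes in the results was checked with 37 cells of each group, paired within plate to within 10% of detected genes, and values from these pairs are called matched.

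**Figure D2:**
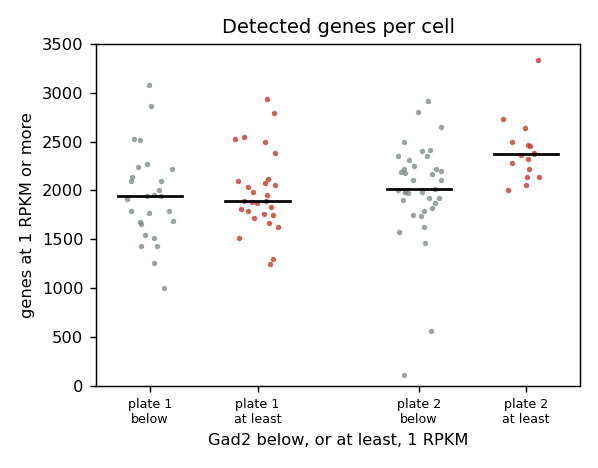
Number of genes at 1 RPKM or more in each P2 cell, by plate and by Gad2 below (grey) or at least (red) 1 RPKM; lines are medians. The red and grey medians differ little in plate 1 (1891.5 and 1946) and more in plate 2 (2369.5 and 2014).

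The other genes of a GABAergic neuron were listed at 0 or rare in cells with Gad2. Gad1 was listed at 0 in all 44 cells with and all 64 cells without Gad2, as were Slc32a1 and Lhx6, a factor of ventral interneurons, and Gad1 and Slc32a1 were also at 0 in all E15 cells. A listed 0 is not proof of absence in these tables: mt-Co2, mt-Co3, mt-Atp6, mt-Atp8 and mt-Nd4l, mitochondrial genes that every cell uses, were listed at 0 in every P2 cell too. No limit on the share of cells was therefore set for Gad1, Slc32a1 and Lhx6. The Dlx and Sp factors had values above 0 in the table but were rare. Dlx1 was detected in 1 cell with and 1 cell without Gad2. Dlx2, Dlx6os1 and Sp8 were each detected in 1 cell with Gad2, and Dlx5 and Sp9 in 2 cells each, and none of them in a cell without Gad2.

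These Dlx and Sp values came from 3 cells with Gad2 and 1 cell without, all on plate 1. A single cell held most of them: it had 26.0 RPKM of Gad2, 22.5 of Dlx2, 9.74 of Dlx1, 2.50 of Dlx5, 2.88 of Dlx6os1 and 26.1 of Sp9, and both Eomes and Neurod6 were at 0. A cell with 31.2 RPKM of Gad2 had 106.4 RPKM of Sp8 and 35.4 of Sp9, together with 56.5 RPKM of Neurod6 and Eomes at 0. The third cell had 43.7 RPKM of Gad2 and 4.72 of Dlx5 but also 248 RPKM of Eomes and 260 of Neurod6. No other cell with Gad2 had any of these factors at 1 RPKM. Without the 4 cells, 46 genes were higher and 8 lower by at least 1 in mean log2(RPKM + 1) in both plates, against 48 (0.744% of the genes measured) and 5 (0.0775%) with them. Of those 48 higher and 5 lower genes, 38 and 5 were still past 1 in both plates without the 4 cells.

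Of the 26 GABAergic lineage transcription factors listed, 6 were measured, a term used for genes detected in 10% or more of the cells with or of the cells without Gad2. None was higher or lower by at least 1 in both plates. Differences are in mean log2(RPKM + 1), with minus without Gad2. The median of the 6 was 0.15 (0.12 in plate 1 and 0.15 in plate 2), beside 0.10 for all 6448 measured genes. Among the 6, Etv1 and Sox6 reached 10% only among cells with Gad2. Measured genes were chosen anew in matched cells, so the members behind a list median can differ there. In matched cells 8 of the factors were measured, with a median of -0.09 beside -0.03 for all genes measured there. Pbx3, a homeodomain cofactor, had the highest difference among them at 0.86 (0.43 in plate 1, 1.38 in plate 2). Its transcript was detected in 28 of 44 cells with and 27 of 64 cells without Gad2. Etv1, an ETS factor, stood at 0.55 (0.67 and 0.23) and was detected in 8 and 4 cells. Zeb2 stood at -0.59 (-1.17 and -0.27), with 7 and 20 cells. Meis2 was in nearly every cell of both groups, 43 of 44 and 62 of 64, with a difference of -0.02 (-0.23 and 0.13).

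Genes that act on GABA showed no difference of this size either. Of 11 genes for its synthesis, transport and breakdown 5 were measured, with a median of 0.01 (0.22 and 0.04), and none passed 1 in both plates. Of 19 genes for GABA receptors, their anchoring and chloride transport 3 were measured, with a median of -0.41 (-0.69 and -0.67), which was -0.08 in matched cells, -0.13 with Gad2 above 0 against 0, and -0.005 when cells with 5 or more detected G2/M genes (many, in what follows) were left out. Gphn, the scaffold gephyrin, was detected in 3 of 44 cells with and 13 of 64 without Gad2 and stood at -0.85 (-0.73 and -0.93). Among 18 products that mark interneuron subtypes only Nos1, neuronal nitric oxide synthase, was measured. Cells with Nos1 numbered 8 of 44 (18.2%) with Gad2 and 25 of 64 (39.1%) without, at -0.86 (-1.26 and -0.55). Sst, Npy, Pvalb, Vip, Cck, Tac1, Penk and Htr3a were detected in no cell of either group. All of them but Htr3a were listed at 0 in every P2 cell, which is not proof of absence.

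Neurog2, the gene whose activity the reporter records, had a higher level and a higher share of cells beside Gad2 in both plates. Its level ran from 0 over a median of 0.413 to 127 RPKM in cells with Gad2, and from 0 over a median of 0 to 138 RPKM in cells without. Cells with Neurog2 numbered 20 of 44 with Gad2 (45.5%, 30.4 to 61.2%) and 12 of 64 without (18.8%, 10.1 to 30.5%). In plate 1 the counts were 10 of 28 (35.7%, 18.6 to 55.9%) and 2 of 27 (7.41%, 0.910 to 24.3%). In plate 2 they were 10 of 16 (62.5%, 35.4 to 84.8%) and 10 of 37 (27.0%, 13.8 to 44.1%). The ranges of levels overlapped in both plates. The difference in mean log2(RPKM + 1) was 1.34 (1.54 in plate 1, 1.46 in plate 2), and 1.18 (1.36 and 0.90) in matched cells. With a Gad2 limit of 5 RPKM it was 0.81 (1.29 and 0.50), so under both changes plate 2 was below 1. Read the other way, Gad2 was detected in 20 of the 32 cells with Neurog2 (62.5%, 43.7 to 78.9%) and in 24 of the 76 cells without it (31.6%, 21.4 to 43.3%). Among cells with Gad2, the median Gad2 level was lower where Neurog2 was detected (10.9 RPKM) than where it was not (31.9 RPKM).

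**Figure D3:**
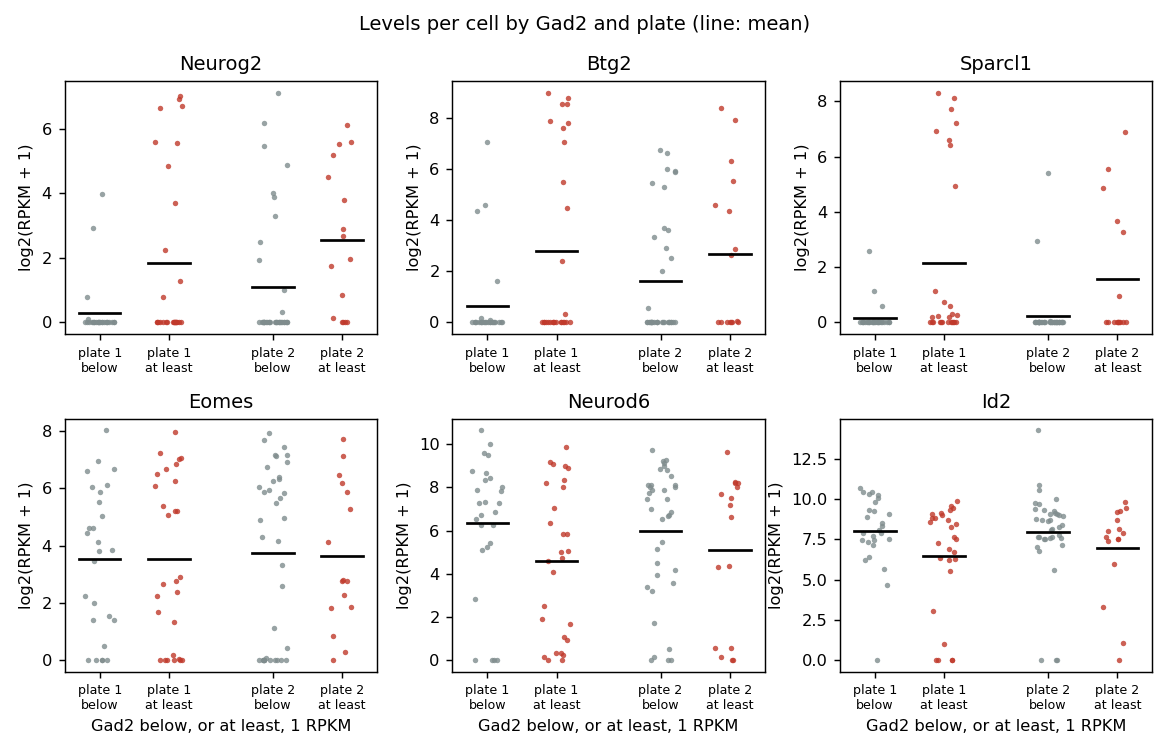
log2(RPKM + 1) of Neurog2, Btg2, Sparcl1, Eomes, Neurod6 and Id2 in each P2 cell, by plate and by Gad2 below (grey) or at least (red) 1 RPKM; lines are means and each panel has its own scale. A larger share of the red than of the grey cells lies above 0 for Neurog2, Btg2 and Sparcl1 in each plate, the lines for Eomes are level, and the red lines for Neurod6 and Id2 are lower.

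Eomes, the marker of intermediate progenitors, had similar shares of cells and mean log levels in the groups, with a lower median beside Gad2. It ran from 0 over a median of 5.90 to 248 RPKM with Gad2 and from 0 over a median of 17.7 to 260 RPKM without. Eomes was detected in 33 of 44 cells with Gad2 (75.0%, 59.7 to 86.8%) and in 45 of 64 without (70.3%, 57.6 to 81.1%). Its difference was -0.07 (0.01 in plate 1, -0.09 in plate 2), and -0.75 (-0.70 and -0.83) in matched cells. The mean log level was thus lower beside Gad2 in matched cells, where the full set showed little difference.

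Of the 16 intermediate progenitor genes listed, 10 were measured and 2 were higher by at least 1 in both plates, Neurog2 and Btg2, beside 0.744% of all measured genes. Neither held in both plates in matched cells. Btg2, an antiproliferative gene of neurogenic divisions, ran from 0 over a median of 0 to 510 RPKM with Gad2 and to 133 RPKM without. The counts of cells with Btg2 were 19 of 44 and 17 of 64, at a difference of 1.51 (2.12 and 1.03). Its plate 2 difference was -0.06 in matched cells and 0.98 without the poorest cell. Hes6, a bHLH gene of differentiating progenitors, stood at 0.92 (1.01 and 0.71), or 0.32 (0.57 and -0.09) in matched cells, and was detected in 22 of 44 and 22 of 64 cells. Sstr2, a somatostatin receptor, stood at 0.55 (0.12 and 1.19). Insm1, a zinc finger factor of the same cells, stood at 0.00 (-0.18 and 0.33). The list's median was 0.44 (0.32 and 0.73) beside 0.10 for all genes. In matched cells the list's median was -0.22 over 11 measured genes, beside -0.03 for all genes measured there. Its sign thus differed between the full and the matched set, whose measured genes also differed.

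Neurod6, a bHLH factor of young glutamatergic neurons, was lower with Gad2. It ran from 0 over a median of 31.8 to 948 RPKM with Gad2, and from 0 over a median of 139 to 1601 RPKM without. It was detected in 32 of 44 cells (72.7%, 57.2 to 85.0%) with and in 55 of 64 (85.9%, 75.0 to 93.4%) without Gad2. The difference was -1.36 (-1.75 in plate 1, -0.89 in plate 2), just short of 1 in plate 2, and it was -1.85 (-1.94 and -1.70) in matched cells. Over the alternatives it ran from -2.12 with a Gad2 limit of 5 RPKM to -0.55 on the log2 of mean RPKM. The ranges overlapped throughout, and most cells with Gad2 also had Neurod6.

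Genes of the glutamatergic neuron list were detected in both groups. All 44 cells with Gad2 had at least 3 of the 23 genes detected, as did 63 of the 64 cells without. Nfib, Pou3f2 and Pou3f3 of that list were each detected in all 44, and in 63, 62 and 64 of the 64. These 3 genes alone gave the count of 44, so it does not mark a cell as glutamatergic. The median number of the 23 genes detected was 10 with and 11 without Gad2. 17 of the 23 were measured, none passed 1 in both plates, and 7 were below 0 and 1 above 0 in both. Their median difference was -0.18 (-0.15 in plate 1, -0.31 in plate 2) beside 0.10 for all genes. Zbtb18, a zinc finger repressor of cortical neurons, was detected in 37 of 44 and 58 of 64 cells, at -1.03 (-1.13 and -0.44). Bcl11a stood at -0.63 (-0.42 and -0.70). Slc17a6, the vesicular glutamate transporter VGLUT2, stood at -0.68 but at -0.01 in plate 1 and -1.11 in plate 2, and it was detected in 19 of 44 and 34 of 64 cells. It was positive at 0.25 when Gad2 above 0 was set against 0. Slc17a7, the other vesicular glutamate transporter listed, was at 0 in every cell of both groups, as Gad1 and Slc32a1 were. That listed 0 is not proof of absence either. Tbr1 was detected in 21 and 36 cells and stood at -0.16 (-0.05 and -0.31), or -0.76 in matched cells. Neurod1, in 23 and 33 cells, stood at -0.004 (-0.23 and 0.28), or -0.64 in matched cells. Neurod2, in 17 and 27 cells, stood at 0.13 (0.40 and -0.02). Pou3f3 was detected in all 44 and all 64 cells and stood at 0.02.

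Grouping the cells by Eomes and Neurod6 showed Gad2 in every class. Of the 64 cells with both, 25 had Gad2 (39.1%, 27.1 to 52.1%). Of the 14 with Eomes alone, 8 had Gad2 (57.1%, 28.9 to 82.3%). Of the 23 with Neurod6 alone, 7 had Gad2 (30.4%, 13.2 to 52.9%), 6 of 11 in plate 1 and 1 of 12 in plate 2. Of the 7 cells with neither, 4 had Gad2. These intervals overlapped, so no order among the classes is read from them.

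Across all genes except Gad2, 6448 were measured, and few differed alike in both plates. 48 genes, or 0.744% of those measured, were higher by at least 1 in both plates, and 5, or 0.0775%, were lower. Within plate 1 alone 208 genes (3.23%) were higher and 132 (2.05%) lower, and within plate 2 alone 655 (10.2%) and 80 (1.24%). 22 genes (0.341%) passed 1 in opposite directions in the plates, and 53.2% of genes had the same sign in both. Across genes, the differences in plate 1 and plate 2 had a Pearson correlation of 0.06, given as a description, since genes are not independent and share the cells' depth. Matched cells gave 22 higher (0.314%) and 30 lower (0.428%) of 7016 measured genes, so the balance of 48 to 5 was not kept. 46 genes (0.656%) passed 1 in opposite directions there, and 52.8% had the same sign. 14 of the 48 higher and 3 of the 5 lower genes were also past 1 in both plates in matched cells. With a Gad2 limit of 5 RPKM 18 and 2 of them were, without the poorest cell 40 and 4, and without the cells in which many G2/M genes were detected 30 and 2. Whether they would recur in other animals was not tested.

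**Figure D4:**
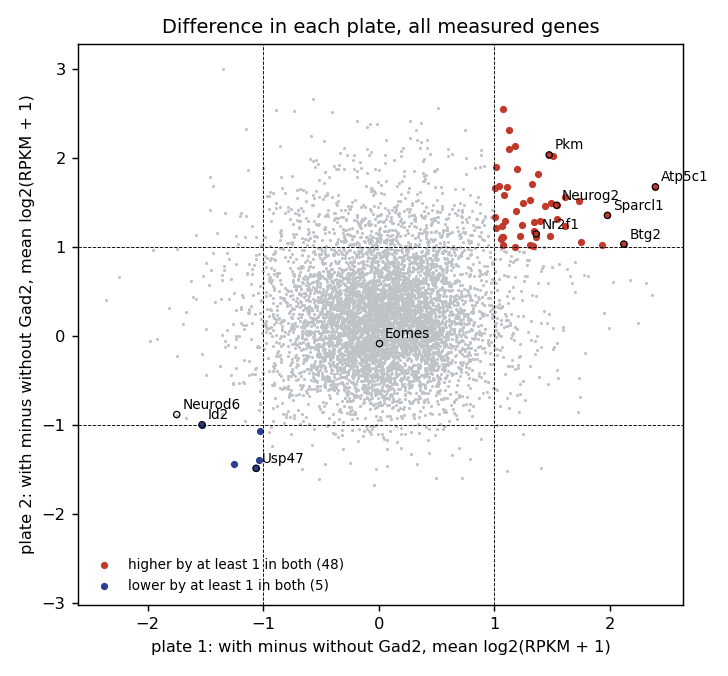
Difference in mean log2(RPKM + 1), with minus without Gad2, in plate 1 (horizontal axis) and plate 2 (vertical axis) for the 6448 measured genes; red points are higher and blue points lower by at least 1 in both plates, dashed lines mark a difference of 1, and open rings are named genes. The cloud shows no diagonal, with 48 red and 5 blue points, and Eomes sits near the centre.

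The largest differences among the higher genes were those of Atp5c1 and Pkm, both of energy metabolism. Atp5c1, the gamma subunit of the mitochondrial ATP synthase, ran from 0 over a median of 62.2 to 403 RPKM with Gad2 and from 0 over a median of 5.61 to 341 RPKM without. It was above the detection limit in 37 of 44 cells (84.1%, 69.9 to 93.4%) and 38 of 64 (59.4%, 46.4 to 71.5%). Its difference was 2.08 (2.40 in plate 1, 1.67 in plate 2), and 2.05 (1.96 and 2.20) in matched cells. On the log2 of mean RPKM it was 0.99, and that of Pkm 0.95. Pkm, pyruvate kinase of glycolysis, had medians of 53.4 and 4.10 RPKM and was detected in 38 of 44 and 40 of 64 cells. Its difference was 1.85 (1.48 and 2.03), and 1.01 (0.86 and 1.24) in matched cells. Idh3b, a subunit of the mitochondrial isocitrate dehydrogenase, was detected in 18 of 44 and 10 of 64 cells, at 1.62 (1.18 and 2.13). Of the genes named here as past 1 in both plates, Atp5c1, Idh3b and Uqcrc2 were so in each alternative that follows. These were matched cells, a Gad2 limit of 5 RPKM, and leaving out cells with few genes. The others left out cells in which many G2/M genes were detected, or the cells with Dlx or Sp factors. Without the poorest cell, Uqcrc2, of oxidative phosphorylation, was below 1 in plate 2, at 0.94.

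Sparcl1, a secreted matrix protein listed here with the astrocyte genes, was detected in few cells without Gad2. It ran from 0 over a median of 0.0688 to 318 RPKM with Gad2 and from 0 over a median of 0 to 41.8 RPKM without. It was detected in 14 of 44 cells (31.8%, 18.6 to 47.6%) and in 4 of 64 (6.25%, 1.73 to 15.2%). In plate 1 the counts were 9 of 28 and 2 of 27, and in plate 2 they were 5 of 16 and 2 of 37. The difference was 1.74 (1.98 and 1.35), and 1.29 (1.76 and 0.53) in matched cells. With a Gad2 limit of 5 RPKM it was 1.44 (1.98 and 0.39). None of the defining astrocyte genes Gfap, S100b, Aldh1l1 and Gja1 was detected in any cell of either group, and no cell had 3 of the 12 astrocyte genes. S100b and Aldh1l1 were listed at 0 in every P2 cell, which is not proof of absence. The summed RPKM of the astrocyte list ran from 0 to 318 with and from 0 to 108.2 without Gad2.

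Herpud1, an endoplasmic reticulum stress gene, was detected in 18 of 44 cells (40.9%) and 10 of 64 (15.6%), at 1.76 (1.73 in plate 1, 1.51 in plate 2). Tpm4, a tropomyosin, stood at 1.71 (1.08 and 2.55), with 21 and 10 cells, and at 0.71 in plate 1 in matched cells. Elp5, an Elongator subunit, stood at 1.69 (1.13 and 2.30), and at 0.55 in plate 1 in matched cells. Trappc4, of the TRAPP trafficking complex, stood at 1.63 (1.51 and 2.02), and at 0.82 (0.51 and 1.55) with a Gad2 limit of 5 RPKM. Arl14ep stood at 1.57 (1.54 and 1.31), and at 0.62 in plate 2 in matched cells. The ribosomal protein gene Rps13 stood at 1.44 (1.33 and 1.70), and at 0.66 in matched cells. Ribosomal protein genes have near-identical copies in the genome that can share their reads. Exons of 31 of the 100 genes chosen for naming overlap another gene, and these libraries carry no strand, so their values may hold reads of the partner. They include Pkm, Tpm4, Elp5, Trappc4, Idh3b, Rps13, Lrrtm4, Dlx1, Dlx6os1, Sp9, Lhx6, Slc32a1, Eomes, Neurod1, Zbtb18, Bcl11a, Nos1, Zeb2 and Gphn. Of the 37 higher genes with a promoter window, 6 of 50 windows (12.0%) held CAGATG, beside 17.2% of all windows.

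All 5 lower genes are named. Id2, an inhibitor of bHLH factors, ran from 0 over a median of 200 to 947 RPKM with Gad2 and from 0 over a median of 311 to 19759 RPKM without, the highest in a single plate 2 cell. Id2 was detected in 38 of 44 and 60 of 64 cells, at -1.32 (-1.53 in plate 1, -1.002 in plate 2). That plate 2 cell was also the one with the fewest detected genes, and without it the difference was -1.22 (-1.53 and -0.83), below 1 in size in plate 2. Without cells with many G2/M genes it was -1.01 (-1.36 and -0.59). Usp47, a deubiquitinating enzyme, was detected in 10 of 44 cells (22.7%, 11.5 to 37.8%) with and 35 of 64 (54.7%, 41.7 to 67.2%) without Gad2, at -1.45 (-1.06 and -1.49), and at -0.77 in plate 1 with a Gad2 limit of 5 RPKM. Ado, a thiol dioxygenase, stood at -1.35 (-1.26 and -1.44), and at -0.18 when the limit for Gad2 was 5 RPKM. Lrrtm4, a postsynaptic adhesion protein, stood at -1.26 (-1.04 and -1.39), and at -0.46 with the limit of 5 RPKM. Dpm2, a subunit of dolichol phosphate mannose synthase, was detected in 5 and 21 cells, at -1.03 (-1.03 and -1.07), and at -0.90 in plate 1 in matched cells. Id2, Usp47 and Ado also passed 1 in both plates in matched cells.

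Among the remaining lists, few genes passed 1 in both plates. Nr2f1, the nuclear receptor COUP-TF1 of regional cortical identity, was detected in 31 of 44 cells (70.5%, 54.8 to 83.2%) with and 29 of 64 (45.3%, 32.8 to 58.3%) without Gad2. Its medians were 3.92 and 0.402 RPKM, and its difference was 1.01 (1.36 and 1.14). It was 1.21 (1.36 and 0.96) in matched cells and 0.74 (1.34 and 0.60) with a Gad2 limit of 5 RPKM, in both cases below 1 in plate 2. The antisense transcript A830082K12Rik shares exons with it. Cdca7, a replication gene, stood at 1.02 (1.08 and 1.11) with 15 and 12 cells, and at 0.93 (0.83 and 1.09) in matched cells. Tubb3, the neuronal tubulin, was detected in all 44 and in 60 of 64 cells, at medians of 395 and 270 RPKM, and stood at 1.16 (1.09 and 1.29), or 0.66 (0.87 and 0.33) in matched cells. None of the other 16 measured pan-neuronal genes passed, and the median of all 17 was 0.17 (-0.19 and 0.50).

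Neurons of the upper layers, the usual product of late glutamatergic progenitors, had 9 measured genes with a median of -0.34 (-0.15 and -0.36). Lhx2 stood at -0.86 (-0.95 and -0.39), detected in 22 of 44 and 41 of 64 cells. Unc5d, a netrin receptor, stood at -2.36 in plate 1 and 0.40 in plate 2, so its overall -1.14 came from plate 1 alone. The 8 measured radial glia genes had a median of 0.05 but -0.39 in plate 1 and 0.62 in plate 2, and -0.21 in matched cells. Pax6 stood at 0.41 (0.42 and 0.77), with 22 of 44 and 26 of 64 cells. The 16 measured genes of tangentially migrating neuroblasts had a median of -0.26 over all cells but -0.01 in plate 1 and 0.006 in plate 2, and of 0.09 when cells with many G2/M genes were left out. Among them Dcx, a microtubule protein of migrating neurons, was detected in 40 of 44 and 61 of 64 cells and stood at 0.05 (0.67 and -0.64), or -0.44 in matched cells. Immediate early genes had a median of 0.16 (0.47 and 0.28) over 7 genes, with Egr1 at 0.79 (1.43 and 0.28), or 0.29 (0.98 and -0.85) in matched cells. The 6 measured Notch genes had a median of 0.22 (0.30 and 0.31).

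Cycling cells were found in both groups. At least 5 of the 21 G2/M genes were detected in 5 of 44 cells with and 13 of 64 cells without Gad2. The 16 measured G2/M genes had a median of -0.07 (-0.17 and -0.18), or -0.05 without the limit for measured genes. Mki67, Ccnb1, Aurkb, Bub1b, Hmmr, Kif11 and Birc5 reached the share needed to be measured only in cells without Gad2. Cenpe reached it only in cells with Gad2. The limit thus favoured lower values in this list. Kif11, a mitotic kinesin, stood at -0.69 (-0.77 in plate 1, -0.67 in plate 2), with 3 and 11 cells. Ccnb1, cyclin B1, was detected in 3 and 12 cells, at -0.54 (-0.79 and -0.49). Mki67 was detected in 4 and 8 cells, at 0.08 (0.04 and 0.04), or -0.16 in matched cells. Without the cycling cells, 56 genes were higher and 9 lower by at least 1 in both plates.

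**Figure D5:**
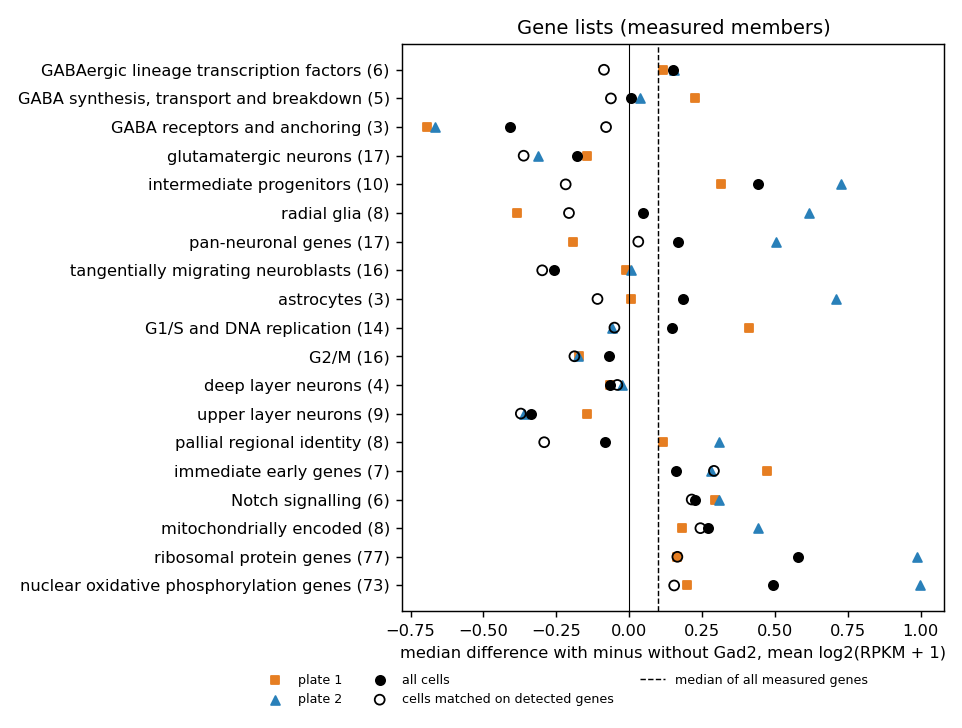
Median difference in mean log2(RPKM + 1), with minus without Gad2, over the measured members of each gene list. Points are for all cells, each plate and cells matched on detected genes. Numbers in brackets count the members measured in all cells, and measured genes were chosen anew in matched cells. The dashed line is the median of all measured genes in all cells, 0.10. GABAergic factors lie near that line (0.15), glutamatergic neuron genes below 0 (-0.18), and intermediate progenitor genes above it in all cells (0.44) but below 0 in matched cells (-0.22).

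Markers of other cell types differed by type. At least 1 of the 12 astrocyte genes was detected in 25 of 44 cells with and 18 of 64 without Gad2, with Sparcl1 in 14 and 4 cells and Sox9, also a radial glia gene, in 11 and 9. At least 1 of 9 Cajal-Retzius genes was detected in 7 and 9 cells, with Reln and Trp73 in none. None of the 12 endothelial and mural genes was detected in any cell, and 1 of the 12 microglial genes was detected in 1 cell with Gad2. In each of these lists 9 genes were listed at 0 in every P2 cell, which is not proof of absence. At least 1 of the 12 oligodendrocyte lineage genes was detected in 4 cells with and 7 cells without Gad2, with Sox10 and Olig1 in none, and 1 ependymal gene in 1 cell without Gad2. Xist, expressed from the inactive X chromosome of females, was detected in no cell of plate 1. In plate 2 it was detected in 5 of 16 cells with Gad2 (31.3%, 11.0 to 58.7%) and in 5 of 37 without (13.5%, 4.54 to 28.8%). The plates thus differed in Xist, whose part in the plate 2 differences was not tested.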

How the data were processed

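Single-cell RNA was measured in 109 P2 cells, 1 library per cell. Per the submitters' processing notes, the authors used bcl2fastq 2.15.0.4, cutadapt 1.9.1, STAR and featureCounts on GRCm38.p4, with no version given for the last pair. The deposited values are RPKM for 46983 gene names. The annotation and counting options are not given in the sources used here. With GENCODE M21 exon lengths (45646 names matched), values worth at most 20 reads were whole numbers of reads within 0.02 in a median of 79.2% of cases per cell, which gave read totals (median 5.90 M, 0.193 to 11.2 M) and Gad2 reads.

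Cells were split at 1 RPKM of Gad2, and a gene was detected at 1 RPKM or more. Levels are means over cells of log2(RPKM + 1), which understates changes of low genes. A gene was counted when its difference was at least 1 in the same direction in both plates. Named genes were the 12 largest higher and up to 12 lower of those found in 25% or more of the cells with or without Gad2, leaving out predicted models, Xist, Tsix and Y-linked genes. Up to 4 measured members of each list with the largest absolute difference and genes fixed by name were added. The members, lists and rules were chosen with earlier results of these data known. Xist is shown as a share only. Alternatives changed the Gad2 limit, pseudocount (0.1), scaling, filter, plates and cells, and the sets without the 4 cells with Dlx or Sp factors and without the cell with the fewest detected genes were added after the values were seen. Promoter windows came from RefSeq on GRCm38.p6. Software was scipy 1.17.1, pandas 2.3.3, matplotlib 3.10.9 and numpy 2.4.6 under Python 3.11.15. The calculation of differences was checked on the measured cells without Gad2, split at random within plate, with known fold changes put into genes drawn at random. A few genes that the naming rule selects are not reported here.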

Additional observations from a re-analysis of the deposited data

How the results depend on the processing

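The counts rest on the pairing of plates and on scale. In place of 48 higher and 5 lower genes there were 23 higher with Gad2 above 0 against 0, 208 higher and 132 lower in plate 1 alone, 655 and 80 in plate 2 alone, 218 and 43 with a pseudocount of 0.1, and 314 and 245 when mean RPKM was logged. There were 189 and 46 with a common total per cell, 29 higher with median ratio scaling, and 22 and 30 in matched cells. Lower genes numbered 13 with a Gad2 limit of 5 RPKM, 9 without cells with many G2/M genes and 8 without the cells with Dlx or Sp factors. The cause was not tested.

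The median of the GABAergic factors, 0.15, was 0.12 with Gad2 above 0, in plate 1 and without cells with few genes, and 0.11 with plates weighted equally and with a common total. It was 0.23 with the limit of 5 RPKM, 0.35 with the lower pseudocount, 0.79 with the log2 of the mean, 0.27 without G2/M cells, 0.054 with no filter, -0.086 in matched cells and -0.042 without the cells with Dlx or Sp factors. The glutamatergic median, -0.18, was -0.31 with the limit of 5 RPKM, in plate 2 and with logged means. It was -0.38 with the lower pseudocount, -0.34 with a common total and -0.36 in matched cells. The intermediate progenitor median, 0.44, was 0.15 with Gad2 above 0, 0.086 with no filter and -0.22 in matched cells. The median difference in detected genes moved by less than the spread over cells in each of these alternatives. A Gad2 level below the limit is not absence, since cells without Gad2 held up to 18 reads on the gene. Depth also limits calls of absence, with a lowest read total of 0.193 M in cells without Gad2.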

Other observations

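Ribosomal protein genes and nuclear genes of oxidative phosphorylation, families chosen by symbol after the values were seen, were higher as groups in plate 2. All 77 ribosomal protein genes were measured, and 64 of them lay above the median difference of all genes. Their median was 0.58, with 0.17 in plate 1 and 0.99 in plate 2, and 0.17 in matched cells. 6 of them, with Rpl22, Rps13, Rpl13 and Rps26 among these, were higher by at least 1 in both plates, beside 0.744% of all measured genes, and of the 6 only Rpl22 was so in matched cells. For oxidative phosphorylation the median over 73 genes was 0.49 (0.20 and 1.00), and 0.15 in matched cells, and 3 passed in both plates: Atp5c1, Uqcrc2 and Uqcr11, beside the same 0.744%. Atp5c1 and Uqcrc2 also passed in matched cells. The 8 measured mitochondrially encoded genes had a median of 0.27 (0.18 and 0.44). Plate 2 was also where cells with Gad2 had more detected genes, 2369.5 against 2014, and the part of that difference in these families was not tested beyond the matched values above.

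The 6 cells with Neurog2 and no Neurod6, a combination picked after the values were seen, included 5 with Gad2 (83.3%, 35.9 to 99.6%). Of the 26 cells with both Neurog2 and Neurod6, 15 had Gad2 (57.7%, 36.9 to 76.6%).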
